A study of Homo sapiens with 6 samples.

Results

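The genes of mitochondrial protein import, of the mitochondrial carrier family and of respiratory complex assembly were examined for peaks of 3 targets in HepG2 cells, a widely used line from a human liver carcinoma. Members were taken by symbol alone, as RefSeq protein-coding genes whose symbols start with TOMM, TIMM, PMPC, MTX, MICOS, SLC25A or NDUFAF, or with COA or COX1 and a further digit. This gave 105 of 19866 protein-coding genes: 10 TOMM, 16 TIMM, 2 PMPC, 3 MTX, 3 MICOS, 48 SLC25A, 8 NDUFAF and 15 complex IV assembly genes (COA1 and COA3 to COA8, COX10, COX11 and COX14 to COX19). The symbols do not sort by function in every case, since TIMMDC1 acts in complex I assembly and MICOS10-NBL1 is a read-through gene that starts at the same base as MICOS10. Chromatin was profiled by CUT&Tag: an antibody bound to its target tethers a transposase, which inserts sequencing adapters into nearby DNA. The antibodies were against the glycolytic enzyme ENO1 (enolase 1), against histone H4 lactylated at lysine 12 (H4K12la), or against the deacetylase HDAC1, and each target had 2 replicate libraries. The labels name no treatment, knockdown or mutation, and all 6 libraries are taken to be of the same line. Separate cultures are not named for the replicates, so p-values measure only the spread between libraries, which may be technical. Only peak lists were used, so a missing peak means that none passed the authors' threshold, and a target in fewer cells cannot be told apart from less of it per cell.

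Nearly all mitochondrial proteins are encoded in the nucleus and made in the cytosol. The TOMM proteins form the receptors and pore of the outer membrane, the TIMM proteins carry precursors across the intermembrane space and through the inner membrane, and the PMPC peptidase removes the targeting sequence. Metaxins (MTX) take part in sorting at the outer membrane, and MICOS subunits shape the cristae. SLC25A carriers exchange metabolites, nucleotides, cofactors and ions across the inner membrane, and assembly factors build complex I (NDUFAF) and complex IV (COA and COX10 to COX19) without staying in the finished enzyme. Liver cells lean on these carriers for the urea cycle, gluconeogenesis and fat oxidation.

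The lists held 1592 and 1189 ENO1 peaks, 5459 and 7568 H4K12la peaks, and 5727 and 4567 HDAC1 peaks on the 24 chromosomes, for replicates 1 and 2. Fold enrichment, the ratio of a peak over the peak caller's background, is the authors' own value and is read here only within a library. Of 11 hepatocyte marker genes, HNF4A alone carried H4K12la in both replicates (3.55-fold and 3.34-fold) and none carried HDAC1 in both. Of 389 olfactory receptor genes OR2T1 alone carried a target in both replicates, and it carried all 3, while 5 other non-liver markers carried none. Peaks do not report expression, so these lists cannot check the cell type.

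H4K12la and HDAC1 lay at the ends of mitochondrial import, carrier and assembly genes more often than at those of other protein-coding genes, and ENO1 at none of them. With a peak within 1 kb of a gene end in both replicates, 21 of 105 members carried H4K12la (20.0%, Wilson 95% interval 13.5 to 28.6), against 10.5% of all protein-coding genes and 10.4% of the 19761 others. HDAC1 was carried by 16 members (15.2%, 9.6 to 23.3), against 8.18% of all protein-coding genes and 8.15% of the others. ENO1 was carried by 0 members, against 13 of all protein-coding genes (0.0654%, or 0.0658% of the others). The shares of members were 1.92 times (H4K12la) and 1.87 times (HDAC1) those of other genes, and no test was made over genes. At -log10 q of 5 or more, 12 members carried H4K12la and 13 HDAC1, and with the 1189 strongest peaks of each library 3 carried each. Intervals cover counting error only, and genes that lie under a common peak are not independent.

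By library, H4K12la peaks were at 26 members in replicate 1 (24.8%; all protein-coding genes 13.5%) and 39 in replicate 2 (37.1%; 19.5%). HDAC1 peaks were at 27 members in replicate 1 (25.7%; 14.8%) and 19 in replicate 2 (18.1%; 10.1%). ENO1 peaks were at 0 members in either replicate, against 33 (0.166%, or 0.167% of the others) and 20 (0.101%) of all protein-coding genes. The share of members was above that of other genes in 4 of 4 H4K12la and HDAC1 libraries, by 1.74 to 1.91 times. Between targets, the mean share was 31.0% ± 8.75 for H4K12la, 21.9% ± 5.39 for HDAC1 and 0.0% ± 0.0 for ENO1 (SD, n = 2). H4K12la and HDAC1 overlapped, since HDAC1 replicate 1 exceeded H4K12la replicate 1 (difference of means 9.05 percentage points, exact permutation p = 0.667, two-sided, adjusted p = 0.667; -0.952 points without replicate 2). Against ENO1, whose lists are shorter, the differences were 31.0 and 21.9 points (exact permutation p = 0.333 and adjusted p = 0.5 for each), and 4.76 points each with equal numbers of peaks. As 0.333 is the smallest p that 2 against 2 libraries allow, no pair could pass 0.05.

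**Figure D1:**
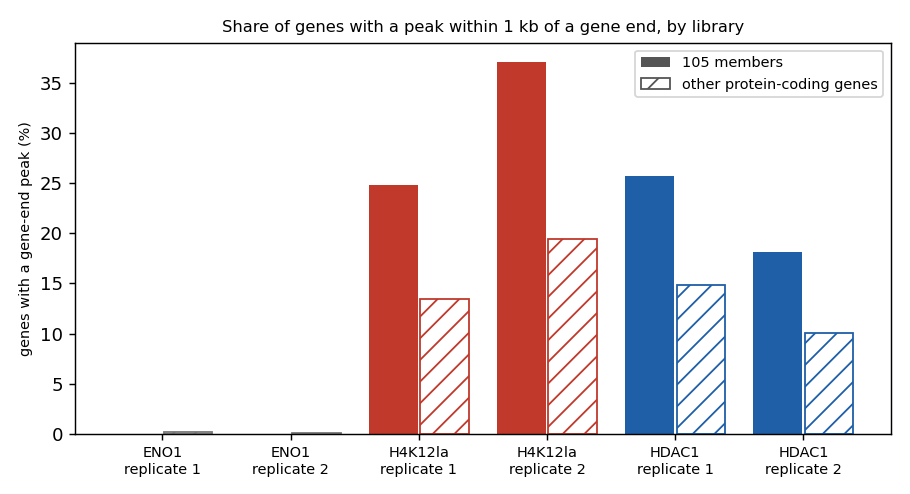
Share of genes (%, from 0) with a peak within 1 kb of either gene end in each of the 6 libraries; filled bars are the 105 members and hatched bars the other protein-coding genes. Members stood at 24.8% and 37.1% for H4K12la, 25.7% and 18.1% for HDAC1 and 0.0% for ENO1, above the other genes in the H4K12la and HDAC1 libraries.

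Crowding of genes moved with these shares. The windows of 61 members (58.1%) touched those of another protein-coding gene, against 36.1% of other genes. Among genes with such a neighbour, 16 of 61 members (26.2%) and 14.2% of others carried H4K12la, and 13 of 61 members (21.3%) and 13.3% of others carried HDAC1. Among genes without one, 5 of 44 members (11.4%) and 8.28% of others carried H4K12la, and 3 of 44 members (6.82%) and 5.25% of others carried HDAC1. The ratio to other genes was therefore 1.37 for H4K12la and 1.3 for HDAC1 among genes with windows of their own, over few members. Of the 21 H4K12la members, 15 (71.4%) had a peak that also reached the end of another protein-coding gene, against 36.8% of other H4K12la genes, and of the 16 HDAC1 members 12 did, against 44.6%. Such a peak cannot be assigned to 1 of its genes, and these neighbours are named below.

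Most of the peaks lay at gene starts. Of the members with a listed start, 18 of 18 H4K12la members and 13 of 13 HDAC1 members had a peak within 1 kb of one in both replicates. The same held for 94.9% and 92.5% of other genes with these targets. At SLC25A28 the peaks at the listed start were not those counted at its outer gene end. The bases before the annotated start are shown for 11 members. These members are up to 2 in each subfamily, taken in order of the lower of the replicate folds of either target. Only genes with a peak at a listed start in both replicates, and enough bases before the start outside other genes, were taken. The peaks need not cover the bases shown. At NDUFAF2 the H4K12la summits lay 411 and 508 bp downstream of the start, and at TOMM40 the HDAC1 summits lay at -529 and -382 bp. The bases run from 5′ to 3′ on the strand of the gene, come from RefSeq (GRCh38.p14), end just before the start and stop where another annotated gene begins. Capitals mark matches, on either strand, to the ETS motif CCGGAAG, the SP1 motif GGGCGG and the NFY motif CCAAT.
TOMM70 (chr3:100401090-100401339, minus strand): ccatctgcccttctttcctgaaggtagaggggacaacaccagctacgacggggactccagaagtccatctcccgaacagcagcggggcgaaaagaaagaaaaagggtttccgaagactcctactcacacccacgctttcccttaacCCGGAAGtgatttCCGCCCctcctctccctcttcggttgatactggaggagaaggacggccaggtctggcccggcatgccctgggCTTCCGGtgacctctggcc
TOMM40 (chr19:44891004-44891253, plus strand): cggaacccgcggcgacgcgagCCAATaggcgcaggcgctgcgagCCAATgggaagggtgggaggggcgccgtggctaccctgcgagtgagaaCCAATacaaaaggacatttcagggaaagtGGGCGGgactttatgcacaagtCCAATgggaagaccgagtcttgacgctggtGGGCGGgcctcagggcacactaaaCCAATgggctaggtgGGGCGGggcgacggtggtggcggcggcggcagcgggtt
MTX3 (chr5:79991263-79991331, minus strand): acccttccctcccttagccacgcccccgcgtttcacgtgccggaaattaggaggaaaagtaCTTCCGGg
MTX2 (chr2:176269192-176269441, plus strand): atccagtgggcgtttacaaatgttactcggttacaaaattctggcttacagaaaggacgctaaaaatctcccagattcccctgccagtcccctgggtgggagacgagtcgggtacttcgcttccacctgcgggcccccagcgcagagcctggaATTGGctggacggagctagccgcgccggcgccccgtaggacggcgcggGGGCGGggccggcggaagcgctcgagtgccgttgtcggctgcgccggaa
MICOS10 (chr1:19596833-19596978, plus strand): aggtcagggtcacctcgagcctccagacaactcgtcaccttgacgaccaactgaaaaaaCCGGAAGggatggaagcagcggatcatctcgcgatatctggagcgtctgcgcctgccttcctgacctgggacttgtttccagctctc
SLC25A25 (chr9:128067982-128068231, plus strand): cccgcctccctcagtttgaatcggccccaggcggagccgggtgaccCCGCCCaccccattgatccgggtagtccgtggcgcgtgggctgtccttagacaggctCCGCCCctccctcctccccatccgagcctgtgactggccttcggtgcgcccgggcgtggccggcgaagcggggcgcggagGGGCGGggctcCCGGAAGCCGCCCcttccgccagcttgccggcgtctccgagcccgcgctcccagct
SLC25A3 (chr12:98593436-98593685, plus strand): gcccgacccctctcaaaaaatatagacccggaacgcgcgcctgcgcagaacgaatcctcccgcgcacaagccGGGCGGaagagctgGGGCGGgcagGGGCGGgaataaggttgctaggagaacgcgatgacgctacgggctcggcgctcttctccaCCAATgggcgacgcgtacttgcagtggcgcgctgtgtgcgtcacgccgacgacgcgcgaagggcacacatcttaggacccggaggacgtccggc
NDUFAF4 (chr6:96897892-96898082, minus strand): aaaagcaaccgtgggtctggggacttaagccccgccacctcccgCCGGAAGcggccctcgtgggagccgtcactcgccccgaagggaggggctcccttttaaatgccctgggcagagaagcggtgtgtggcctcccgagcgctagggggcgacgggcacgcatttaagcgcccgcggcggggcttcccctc
NDUFAF2 (chr5:60945071-60945204, plus strand): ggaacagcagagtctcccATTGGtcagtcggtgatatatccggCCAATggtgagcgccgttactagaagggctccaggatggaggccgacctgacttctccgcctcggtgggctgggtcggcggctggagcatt
COX18 (chr4:73069760-73069945, minus strand): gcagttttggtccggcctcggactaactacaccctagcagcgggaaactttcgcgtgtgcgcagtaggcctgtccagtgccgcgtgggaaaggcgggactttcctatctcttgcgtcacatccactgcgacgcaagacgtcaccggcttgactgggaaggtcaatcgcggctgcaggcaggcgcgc
COX15 (chr10:99732128-99732233, minus strand): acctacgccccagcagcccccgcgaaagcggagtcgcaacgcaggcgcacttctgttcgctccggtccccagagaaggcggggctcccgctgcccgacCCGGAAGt
Of these 11, TOMM70, MTX3, MICOS10, SLC25A25, NDUFAF4 and COX15 hold the ETS motif in these bases, and 5 do not: TOMM40, MTX2 and SLC25A3 hold NFY and SP1 motifs, NDUFAF2 holds NFY motifs and COX18 holds none. In SLC25A25 an ETS motif runs directly into an SP1 motif.

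Over the 300 bases around the outermost listed start (250 before and 50 after it begins), 34 of 93 members (36.6%) held the ETS motif, against 14.0% of other protein-coding genes and 10.3% of all promoters in the table. It was in 10 of 18 H4K12la members (55.6%), 8 of 13 HDAC1 members (61.5%) and 13 of 44 members without a gene-end peak in any library (29.5%). Among other genes the same shares were 24.2%, 19.3% and 10.1%, so genes with either target stood above peak-free genes there too. Between the targets, the HDAC1 share was the higher among members and the H4K12la share among other genes. MICOS10 and MICOS10-NBL1 share their start, so the same ETS match is counted for each of them in the counts of members, H4K12la members and HDAC1 members. The NRF1 core GCATGCGC was in 7 members (7.53%), 4.26% of other protein-coding genes and 3.05% of all promoters. The YY1 motif was in 5 members (5.38%; others 1.86%, all promoters 1.2%), and TATAAA in 4 (4.3%; others 9.78%, all promoters 11.5%). The CRE motif TGACGTCA was in 2 members (2.15%), below the 2.57% of other protein-coding genes and above the 1.85% of all promoters. GGGCGG was in 60 members (64.5%; others 58.3%, all promoters 45.0%) and CCAAT in 39 (41.9%; others 36.4%, all promoters 34.6%). All motifs were searched on both strands, and a match describes letters, not binding. Median GC was 64.7% for members, 60.8% for H4K12la members, 62.7% for HDAC1 members and 62.7% for other protein-coding genes. The median ratio of observed to expected CpG was 0.889 for members and 0.761 for other genes.

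Of 10 TOMM genes, HDAC1 was at 3 in both replicates (all protein-coding genes 8.18%) and H4K12la at 1 (10.5%). By library, HDAC1 was at 3 and 3 and H4K12la at 3 and 2, and the targets were not tested against each other. TOMM70 (chr3:100363431-100401089), the receptor for carrier precursors, had the highest HDAC1 fold of all members in each library, 9.91-fold and 7.99-fold in replicates 1 and 2. These values stood above those of 99.8% and 98.0% of other genes with an HDAC1 peak in the same list. Its H4K12la folds were 3.63 and 4.11, above 52.6% of other genes in replicate 2 and fewer in replicate 1, and LNP1 has a gene end under its peaks too. TOMM40 (chr19:44891254-44903689), the outer membrane pore, carried HDAC1 at 7.45-fold and 7.13-fold, with no H4K12la peak and no other protein-coding gene under the peaks. TOMM6, a small subunit of the pore complex, carried HDAC1 at 5.01-fold and 5.18-fold and H4K12la in replicate 1 alone (3.98-fold), with PRICKLE4 under the same peaks. The receptor gene TOMM20 had 1 peak, of H4K12la in replicate 2 (4.19-fold), the small subunit gene TOMM5 1 of H4K12la in replicate 1 (4.0-fold), and the receptor gene TOMM22 had none.

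TIMM genes carried H4K12la in both replicates at 2 of 16 members (12.5%; all protein-coding genes 10.5%) and HDAC1 at 0 (8.18%), near the background for 16 genes. TIMM8B, a small chaperone of the intermembrane space, had 4.01-fold and 3.71-fold of H4K12la under a peak shared with SDHD, a complex II subunit gene. TIMM9, a chaperone that hands carriers to the inner membrane, had 3.21-fold and 3.21-fold, low in both lists, under a peak shared with KIAA0586. HDAC1 was at TIMM9 in replicate 1 alone (4.33-fold). A further 5 TIMM genes had H4K12la in replicate 2 only, among them TIMM44, which ties the import motor to the channel (4.22-fold, with HDAC1 at 4.34-fold in replicate 1), TIMM50, the precursor receptor (3.28-fold), and TIMMDC1 (3.57-fold). TIMM23, the channel of the inner membrane, had none, whereas its near-identical copy TIMM23B had 3.21-fold of H4K12la in replicate 2, at a window shared with PARG. Reads may be divided between these copies, so neither value is certain. TIMM22, the channel for carriers, had no gene-end peak in any library.

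**Figure D2:**
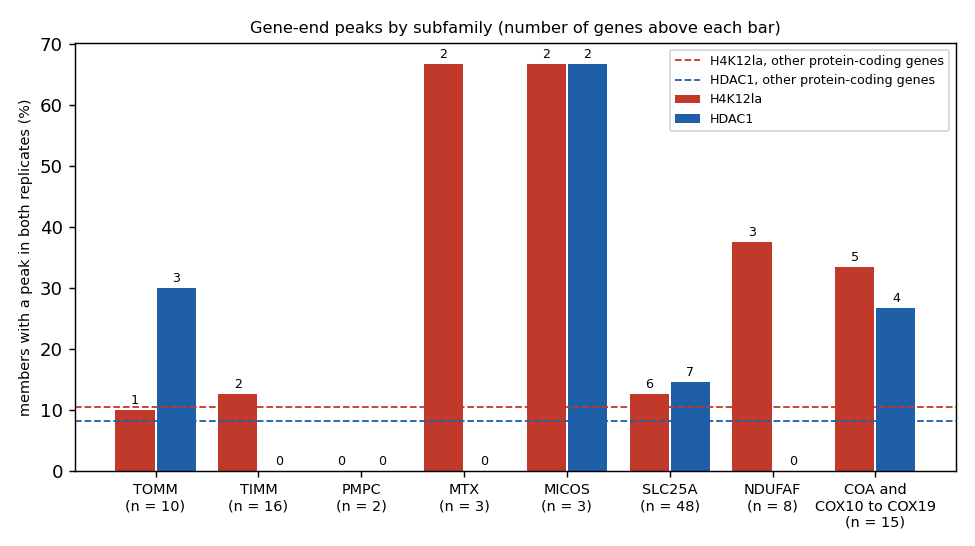
Percentage of each subfamily (from 0; n below the name) with a gene-end peak in both replicates of H4K12la or HDAC1, with the number of genes above each bar; dashed lines are the other protein-coding genes (10.4% and 8.15%). TIMM, MTX and NDUFAF bars are present for H4K12la alone, and MICOS, SLC25A and complex IV assembly bars exceed the lines for both targets.

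Of the 3 MTX genes 2 carried H4K12la (all protein-coding genes 10.5%) and none HDAC1 (8.18%). Of the 3 MICOS genes 2 carried both targets, against 3.18% of all protein-coding genes. MTX2 (chr2:176269442-176338025), a metaxin of the sorting complex, had 6.09-fold and 5.69-fold of H4K12la, above 97.9% and 94.6% of other genes with a peak in those lists. MTX3 (chr5:79976716-79991262) had 5.79-fold and 6.29-fold, above 97.0% and 98.2%, under a peak that also reached THBS4, an extracellular matrix gene. Neither had HDAC1 in any library, and MTX1 had no peak. MICOS10 (chr1:19596979-19629820), a core subunit of the cristae junction, carried both targets, with H4K12la at 3.5-fold and 3.42-fold and HDAC1 at 5.91-fold and 5.44-fold. The H4K12la folds stood above only 26.0% and 18.0% of other genes with a peak in those lists, and the HDAC1 folds above 80.4% and 72.9%. At -log10 q of 5 or more, the MICOS count for H4K12la fell to 0 and that for HDAC1 stayed at 2. MICOS10-NBL1 has the same start and therefore the same values, so these are 2 genes at 1 place; MICOS13 had no peak. The peptidase genes PMPCA and PMPCB had no gene-end peak, and PMPCB had an HDAC1 peak within the gene in replicate 1 (4.62-fold).

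Carriers made up the largest subfamily and carried H4K12la at 6 of 48 (12.5%; all protein-coding genes 10.5%) and HDAC1 at 7 of 48 (14.6%; 8.18%). SLC25A46 (chr5:110738145-110765157), an outer membrane relative that acts in mitochondrial shape, had the highest H4K12la folds of the carriers, 6.21 and 6.09, with HDAC1 at 4.89-fold and 5.55-fold. Its peaks lay 497 to 997 bp from the outermost gene end and reached TMEM232 as well, and their summits were 276 to 342 bp downstream of the listed start. SLC25A32, a folate and flavin carrier, had H4K12la at 3.99-fold and 5.15-fold and HDAC1 at 5.68-fold and 5.74-fold at a place shared with DCAF13. SLC25A28, an iron carrier (mitoferrin 2), had H4K12la at 4.02-fold and 4.36-fold and HDAC1 at 6.11-fold and 4.44-fold at the outer gene end, which it shares with ENTPD7. At its listed start, inside that span, HDAC1 was higher, at 7.03-fold and 6.0-fold, and H4K12la was 3.82-fold and 4.3-fold. These 3 carriers held both targets in all 4 libraries.

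Other carriers had 1 target in both replicates. H4K12la was at SLC25A3, the phosphate carrier (4.21-fold and 4.23-fold), at SLC25A21, an oxodicarboxylate carrier (4.58-fold and 5.88-fold), and at SLC25A40, a glutathione carrier (3.35-fold and 4.13-fold, shared with DBF4). None of these 3 had an HDAC1 peak. HDAC1 was at SLC25A41, an ATP-magnesium carrier relative (6.75-fold and 5.44-fold, shared with KHSRP), and SLC25A25, of the same group (5.94-fold and 4.77-fold, shared with NAIF1). Both had no H4K12la peak, whereas SLC25A36, a pyrimidine nucleotide carrier, had HDAC1 at 6.22-fold and 4.18-fold and H4K12la in replicate 2 alone (3.82-fold). SLC25A13, the aspartate and glutamate carrier of the urea cycle, had 1 peak of each target in opposite replicates (H4K12la replicate 2 at 4.15-fold, HDAC1 replicate 1 at 4.35-fold). SLC25A15, the ornithine carrier, had HDAC1 in replicate 1 alone (4.11-fold). The citrate carrier SLC25A1, the carnitine carrier SLC25A20, the liver-enriched SLC25A47 and the adenine nucleotide carriers SLC25A4 and SLC25A5 had no gene-end peak, and SLC25A6, of the same group, had HDAC1 in replicate 1 alone (4.18-fold).

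Complex I assembly genes carried H4K12la in both replicates at 3 of 8 (37.5%; all protein-coding genes 10.5%), over few genes. HDAC1 was at 0 of 8 (all protein-coding genes 8.18%), a count near the background for 8 genes. The HDAC1 count was 1, NDUFAF3, with windows of 2 kb or at listed starts only. NDUFAF4 (chr6:96889315-96897891) had 4.4-fold and 5.14-fold, at a place shared with KLHL32. NDUFAF2 had 4.15-fold and 3.94-fold, shared with the DNA repair gene ERCC8, and NDUFAF7, a methyltransferase of a complex I subunit, 4.02-fold and 3.54-fold, shared with CEBPZ. NDUFAF4 stood above 72.6% and 87.6% of other genes in its lists, NDUFAF2 above 62.3% and 44.6%, and NDUFAF7 above 55.2% and 23.7%. HDAC1 was at NDUFAF7 in replicate 1 alone (3.75-fold), and H4K12la in replicate 2 alone at NDUFAF1 (3.44-fold) and NDUFAF5 (3.17-fold). All 3 genes with H4K12la in both replicates shared their peak with another gene, so the value cannot be given to the assembly factor alone.

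Complex IV assembly genes carried a peak most widely, at 13 of 15 in at least 1 library, against 29.1% of all protein-coding genes and 29.0% of the others. H4K12la was at 5 of 15 in both replicates (33.3%; all protein-coding genes 10.5%) and HDAC1 at 4 of 15 (26.7%; 8.18%). No gene was in both counts, and both targets were at 3.18% of all protein-coding genes. At -log10 q of 5 or more, H4K12la was at 2, with COA5, COX10 and COX11 lost, and HDAC1 at 3, with COA4 lost. COX18, which inserts a subunit into the inner membrane, had H4K12la at 4.6-fold and 4.67-fold and HDAC1 in replicate 1 alone (6.98-fold). COX10, the heme O synthase, had 4.75-fold and 3.8-fold, with HDAC1 in replicate 2 alone (3.66-fold). COA1 had 4.26-fold and 4.36-fold, COA5 3.4-fold and 3.05-fold beside UNC50, and COX11, a copper delivery factor, 2.82-fold and 3.55-fold beside STXBP4. COA1, COA5 and COX11 had no HDAC1 peak. In the H4K12la lists COX18 stood above 78.9% and 75.9% of other genes, COX10 above 83.2% and 37.9%, and COA1 above 67.0% and 63.4%. COA5 stood above only 20.0% and 5.89%, and COX11 above 2.57% and 24.6%. For HDAC1, COA6, a copper factor, had 5.96-fold and 5.33-fold, and COX15, the heme A synthase, 4.44-fold and 4.56-fold beside CUTC. COX14 had 4.05-fold and 5.03-fold beside GPD1, and COA4 4.38-fold and 3.75-fold beside PAAF1. COA6, COX15 and COA4 also had H4K12la in replicate 2 (4.76-fold, 4.15-fold and 3.15-fold), whereas COX14 had none. The copper chaperone gene COX17 had H4K12la in replicate 2 alone (4.32-fold).

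**Figure D3:**
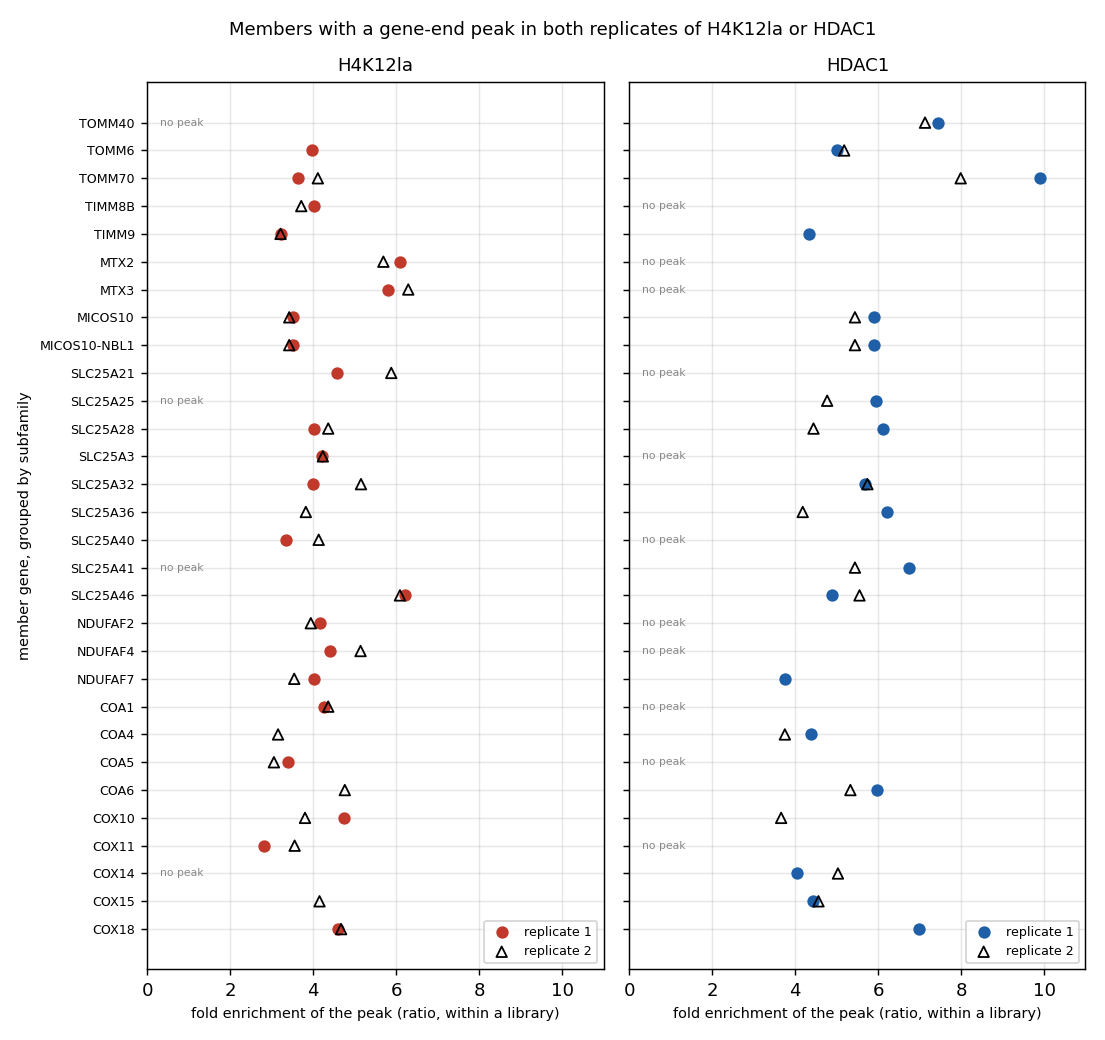
Fold enrichment (ratio over background within a library, from 0) of the gene-end peak at each of 30 members with H4K12la (left) or HDAC1 (right) in both replicates; filled circles are replicate 1, open black triangles replicate 2, and a single symbol means a peak in that replicate alone. TOMM70 and TOMM40 stand at the right of the HDAC1 panel, and MTX2, MTX3 and SLC25A46 at the right of the H4K12la panel.

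In all, 31 members (29.5%) held H4K12la or HDAC1 in both replicates, against 15.4% of other genes. Both targets in both replicates were at 6 members, the 2 MICOS10 genes, TOMM70, SLC25A46, SLC25A32 and SLC25A28 (5.71%; 3.18% of all protein-coding genes and 3.16% of the others). That is 28.6% of the H4K12la members and 37.5% of the HDAC1 members, against 30.4% and 38.8% of other genes. Another 11 members held H4K12la in both replicates with no HDAC1 peak (10.5%; other genes 4.71%), and 5 held HDAC1 in both with no H4K12la peak (4.76%; 2.87%). The remaining 9 had the second target in 1 replicate.

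The folds of members were not far from those of other genes with a peak in the same list. The median was 4.02 against 3.93 in H4K12la replicate 1 and 4.11 against 4.06 in replicate 2, and for HDAC1 4.89 against 4.72 and 5.18 against 4.76. Members above the other genes' median numbered 18 of 26, 20 of 39, 16 of 27 and 12 of 19 in these lists. H4K12la folds of members ran from 2.82 to 6.21 and 2.37 to 6.29 in replicates 1 and 2, and HDAC1 folds from 3.14 to 9.91 and 3.66 to 7.99.

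A further 25 members (23.8%) had a peak in some library but no target in both replicates, against 13.6% of other genes. Among them were SLC25A38, a glycine carrier (H4K12la replicate 1, 4.79-fold, above 84.2% of other genes in that list), and SLC25A43 (H4K12la replicate 2, 4.74-fold, above 78.2%). SLC25A45 (4.79-fold, above 52.1%) and TIMM10B, a small import chaperone (4.77-fold, above 51.7%), had HDAC1 in replicate 1. Others were SLC25A17, a peroxisomal carrier (H4K12la replicate 2, 4.39-fold), COA8 (HDAC1 replicate 1, 4.36-fold) and TIMM21 (HDAC1 replicate 2, 4.15-fold). By target, 23 of 105 members had H4K12la and 14 had HDAC1 in 1 replicate only, against 2375 and 1689 of the 19761 other genes. No gene-end peak in any library was found at 49 members (46.7%), against 71.0% of other genes.

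The 1 kb limit of the windows touched few members. Just inside it lay SLC25A46 (HDAC1 replicate 2, 997 bp, 5.55-fold) and SLC25A45 (HDAC1 replicate 1, 899 bp, 4.79-fold). Just outside lay SLC25A47 (H4K12la replicate 1, 1101 bp, 2.93-fold), SLC25A45 (HDAC1 replicate 2, 1168 bp, 4.34-fold) and NDUFAF3 (HDAC1 in both replicates, 1183 and 1217 bp, 3.67-fold and 3.56-fold). An H4K12la peak within the gene, with none at its ends, was at 4.76% and 2.86% of members in replicates 1 and 2 (other genes 5.25% and 6.43%). For HDAC1 the shares were 3.81% and 4.76% (other genes 4.57% and 3.66%), so neither target stood clearly above the background. H4K12la was within the gene in both replicates at SLC25A26, the S-adenosylmethionine carrier (4.69-fold and 5.52-fold), and at NDUFAF6 (3.72-fold and 4.3-fold). HDAC1 was likewise at SLC25A33, a pyrimidine nucleotide carrier (5.15-fold and 5.24-fold), and SLC25A30 held both targets inside the gene (H4K12la 3.64-fold and 3.49-fold, HDAC1 5.08-fold and 3.68-fold). At the listed start of SLC25A26, which lies inside the gene span, H4K12la was 4.09-fold and 5.52-fold, with summits 18 and 234 bp downstream.

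ENO1 peaks were far from these genes. The nearest was at TIMM22, 59.0 kb away in both replicates, and the next were SLC25A6 at 87.7 kb in replicate 1 and SLC25A4 at 67.8 kb in replicate 2. The median distance from a member to the nearest ENO1 peak was 1830 kb and 3740 kb in replicates 1 and 2, and for other genes 1940 kb and 3450 kb. Within 10 kb of a gene end there was an ENO1 peak at 0 members in either replicate and at 0.982% and 0.486% of other genes. No member had an ENO1 peak inside the gene. With a background this low, a set of 105 genes would seldom include an ENO1 gene, so the absence is not a result about the members.

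H4K12la summits of members lay further downstream of the gene start than HDAC1 summits. The summit of H4K12la peaks lay downstream of the nearest listed start in 19 of 23 members in replicate 1 (82.6%, Wilson 95% interval 62.9 to 93.0) and 24 of 36 in replicate 2 (66.7%, 50.3 to 79.8). The HDAC1 summit did so in 9 of 25 (36.0%, 20.2 to 55.5) and 4 of 19 (21.1%, 8.51 to 43.3). Median positions were 229 and 146 bp downstream for H4K12la, and -134 and -210 bp, that is upstream, for HDAC1. Across libraries the median of members was 188 bp ± 58.7 for H4K12la and -172 bp ± 53.7 for HDAC1 (SD, n = 2), without overlap (exact permutation p = 0.333, two-sided, the smallest possible). Other genes had the same order with a smaller gap, at 49 and 37 bp for H4K12la and -106 and -134 bp for HDAC1, and whether the gap differs between members and other genes was not tested.

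**Figure D4:**
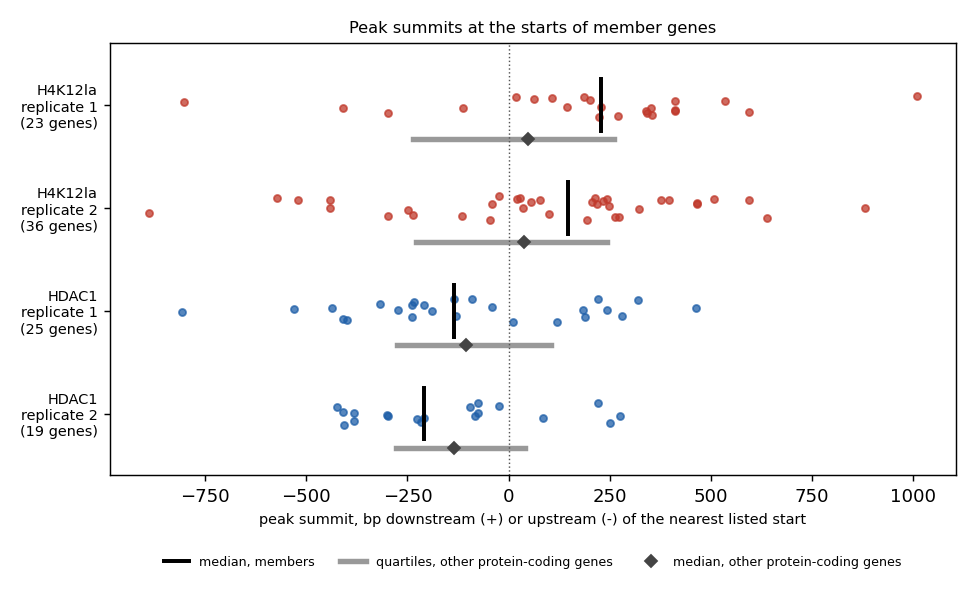
Position of the peak summit in bp from the nearest listed start (positive is downstream) for members with a peak there, 1 point per gene and 1 row per library; black bars are member medians, and grey lines and diamonds the quartiles and median of other protein-coding genes. Member medians lie at 229 and 146 bp for H4K12la and at -134 and -210 bp for HDAC1.

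Single genes show both the pattern and its exceptions. At MTX2 the H4K12la summits lay 186 and 466 bp downstream, at MTX3 200 and 243 bp and at SLC25A21 62 and 273 bp. At TOMM40 the HDAC1 summits lay at -529 and -382 bp, at COX15 at -318 and -381 bp and at SLC25A25 at -398 and -406 bp. Where a gene held both targets the order was less clear. For the 5 members with all 4 libraries at a listed start, summit positions were averaged over the replicates. By these averages H4K12la stood downstream of HDAC1 in 3, which are 2 places since MICOS10 and MICOS10-NBL1 share their start. Over 559 other genes it did so in 54.7%, and the median difference was 24 bp. At TOMM70 the summits of H4K12la were at -297 bp in both replicates and those of HDAC1 at -134 and -297 bp. At MICOS10 the H4K12la summit lay at 412 bp in replicate 1 and -441 bp in replicate 2. Its HDAC1 summits lay at -239 and -75 bp, so the order of the targets there differed between replicates. Peak width, 514 and 660 bp for H4K12la and 526 and 424 bp for HDAC1 by median, overlapped between the targets (exact permutation p = 0.667, two-sided).

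Other genes of the same pathways, outside the symbol rule, were scored alike. Over all protein-coding genes the shares were 10.5% for H4K12la and 8.18% for HDAC1. Of 36 further genes of import, sorting and quality control, 7 carried H4K12la (19.4%) and 8 HDAC1 (22.2%) in both replicates. They include OMA1, an inner membrane protease gene, with 6.78-fold and 5.43-fold of H4K12la, and DNAJC19, of the import motor, with 5.08-fold and 4.93-fold; IMMP1L (4.75-fold and 5.67-fold) and OXA1L (3.96-fold and 4.34-fold) followed. HDAC1 led at the chaperonin genes HSPD1 and HSPE1 under a common peak (7.73-fold and 6.63-fold) and at the protease genes AFG3L2 (6.37-fold and 6.21-fold) and LONP1 (6.7-fold and 5.6-fold). Of 36 further assembly factors, 9 carried H4K12la and 5 HDAC1. UQCC6, of complex III assembly, had both (H4K12la 4.44-fold and 5.08-fold, HDAC1 4.44-fold and 4.34-fold). SCO1, a copper factor, had 4.38-fold and 4.14-fold of H4K12la, and CMC2 6.3-fold and 5.76-fold of HDAC1. Of 23 other transporters, 6 carried H4K12la (26.1%), with MICU2 of the calcium uniporter at 4.25-fold and 5.37-fold, and 5 carried HDAC1 (21.7%), with the porin VDAC2 at 7.6-fold and 5.8-fold. No gene of these 3 lists had an ENO1 peak.

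Mitochondrial ribosomal protein genes and respiratory chain subunit genes were set beside the members. H4K12la was at 22 of 77 mitochondrial ribosomal genes (28.6%) and 19 of 87 respiratory chain genes (21.8%), and at 20.0% of members (all protein-coding genes 10.5%). HDAC1 was at 6 of 77 (7.79%) and 10 of 87 (11.5%), and at 15.2% of members (all protein-coding genes 8.18%), so the mitochondrial ribosomal share was near the background. The Wilson intervals of both lists overlap those of the members for each target, and the differences between the lists were not tested.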

How the data were processed

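Peaks of ENO1, H4K12la and HDAC1 were mapped by CUT&Tag in HepG2, with 2 libraries for each of 3 targets, grouped and numbered by their titles. FastQC, Bowtie2, MACS2, deepTools and build hg38 are named per the submitters' processing notes, with versions, settings and any control library not given in the sources used here. For each library, the authors deposited 1 narrow peak list, with each peak's fold enrichment (a ratio over background within that library), its -log10 p and q, a score (about 10 times that -log10 q, cut to a whole number), and the summit position. The lowest -log10 q was just above 2 in each deposited list, which sets a q value limit of 0.01. Depth in reads is unknown.

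Gene positions came from the RefSeq table of GRCh38 patch 14, the build of the lists, on 24 chromosomes. Entries after the positions under a chromosome first fell were taken to lie on other sequences and left out (718 genes, 171 of them protein-coding). A gene carried a target when a peak in each replicate list shared at least 1 bp with the windows reaching 1000 bp to either side of its annotated start or end. Where several peaks did, the highest fold was taken. Starts and strands came from the RefSeq promoter table, which held 93 of the 105 members. The members and all gene lists were chosen with earlier results of these data known. No test was made over genes; shares have Wilson 95% intervals, and library shares were compared by exact permutation with Benjamini-Hochberg adjustment over 3 pairs. The scoring was tested on simulated data. Alternatives covered the window, the q threshold, list length, summits, listed starts, unshared windows and each replicate alone; leaving out a read-through gene was chosen after seeing the data. Named genes were every member with a target in both replicates (1 is counted but its values are not reported here), the 12 others with the highest fold, a fixed set of core members, and up to 4 genes per list and target. The additional assembly, import and transporter lists, mitochondrial ribosomal and respiratory chain genes, hepatocyte markers, olfactory receptors and other non-liver markers were scored alike. Python 3.11.15, numpy 2.4.6, pandas 2.3.3, scipy 1.17.1 and matplotlib 3.10.9 were used.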

Additional observations from a re-analysis of the deposited data

How the results depend on the processing

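The members' share stayed above that of other protein-coding genes under all alternatives tried, by 1.37 to 2.48 times for H4K12la and 1.3 to 2.05 times for HDAC1. The lowest ratios were among genes whose windows touch no other gene's. The highest were 2.48 with the 1189 strongest peaks of each library, where only 3 members carried H4K12la, and 2.05 with windows of 2 kb. Some counts moved further. At -log10 q of 5 or more, 12 members carried H4K12la. With 1189 strongest peaks from each library, 3 carried H4K12la and 3 HDAC1, and the difference in share between them was 0.0 percentage points. Among the 44 members with unshared windows, 5 carried H4K12la and 3 HDAC1; fewer genes were scored there. By 1 replicate alone, 26 to 39 members carried H4K12la and 19 to 27 HDAC1, since a single list asks for no second peak. Without MICOS10-NBL1, an alternative chosen after seeing the data, 20 carried H4K12la and 15 HDAC1. ENO1 stayed at 0 in every setting. The share of members was higher for H4K12la than HDAC1 by 19.0 points without replicate 1 but turned to -0.952 without replicate 2; against ENO1, leaving out a replicate gave 24.8 to 37.1 (H4K12la) and 18.1 to 25.7 (HDAC1). The differences from ENO1 fell to 4.76 for both with equal numbers of peaks, and were 19.5 and 17.1 at -log10 q of 5 or more and 26.1 and 13.6 with unshared windows.

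Replicate numbers were shared between targets only as numbers: over genes, replicate differences in peak presence correlated at -0.028 (H4K12la with HDAC1), -0.0048 (H4K12la with ENO1) and -0.017 (HDAC1 with ENO1). With a replicate block, the differences of 9.05, 31.0 and 21.9 points had exact permutation p of 1.0, 0.5 and 0.5, and 0.5 is the smallest that block allows. Depth is unknown, and the peak threshold limits which genes can be counted.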
